A study of Rattus norvegicus with 10 samples.

Results

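*Duox1* and *Duox2*, the dual oxidases of the thyroid follicular cell, and *Duoxa1* and *Duoxa2*, the factors that carry them out of the endoplasmic reticulum (ER), were followed in PCCl3 cells after silencing of *FoxE1*. Members were chosen by name. Each of the 4 genes was represented by 1 probe, printed on 2 spots per array, out of 30367 non-control probes, of which 17998 were named here for 15154 genes. PCCl3 is a rat thyroid follicular cell line, grown here in every condition with serum, TSH and 5 other hormones or growth factors, so that all groups were stimulated by TSH. Cells in the siFoxE1 group received 25 nM of a pool of siRNAs against rat *FoxE1*, those in the siScramble group 25 nM of a non-targeting pool, and wt cells were left untreated. Total RNA taken at 48 h was hybridised on 10 Agilent arrays of 2 colours. Both comparisons, siFoxE1 over siScramble and siFoxE1 over wt, had 4 arrays of individual cultures with siFoxE1 in Cy5 and 1 array of the pooled 4 cultures with the dyes swapped. The study's drawing of the design shows a single siFoxE1 extract for both arrays of a culture number, so that the comparisons share their siFoxE1 RNA.

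Duox1 and Duox2 are membrane enzymes of the NADPH oxidase family that pass electrons from cytosolic NADPH to oxygen and release hydrogen peroxide at the apical surface of the thyrocyte. The peroxide is used to bind iodide to thyroglobulin (Tg), and calcium activates the oxidases through their EF hands. Each oxidase needs its own maturation factor, Duoxa1 or Duoxa2, to leave the ER and reach the membrane, and human loss-of-function variants in *DUOX2* or *DUOXA2* cause congenital hypothyroidism. FoxE1 (TTF-2) is the forkhead transcription factor of the thyroid that recognises a core AAACA and acts on the *Tg* promoter. The study searched for its core near TTGG, the motif of NF1/CTF.

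In the RefSeq gene order of rat chromosome 3 the genes lie side by side as *Duox2*, *Duoxa2*, *Duoxa1* and *Duox1*, between *Sord* and *Shf*. Promoter windows from RefSeq (GRCr8, 250 bases before to 50 after the start site) matched 3 of the 4 genes, with no entry for *Duoxa2*. They are shown because the silenced factor binds DNA, and capitals mark ACAAA, the core as it is written in the pattern of the study's methods, read on either strand (TTTGT on the other). The windows are *Duox2* at chr3:129698704-129699003 on the minus strand, *Duoxa1* at chr3:129713957-129714256 on the minus strand and *Duox1* at chr3:129715746-129716045 on the plus strand.
Duox2: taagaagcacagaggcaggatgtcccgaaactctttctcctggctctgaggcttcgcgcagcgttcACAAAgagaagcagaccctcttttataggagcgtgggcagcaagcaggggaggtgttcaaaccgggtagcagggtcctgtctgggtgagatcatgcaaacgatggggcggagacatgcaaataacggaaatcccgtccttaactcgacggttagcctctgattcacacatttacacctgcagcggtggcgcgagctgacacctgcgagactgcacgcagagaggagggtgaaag
Duox1: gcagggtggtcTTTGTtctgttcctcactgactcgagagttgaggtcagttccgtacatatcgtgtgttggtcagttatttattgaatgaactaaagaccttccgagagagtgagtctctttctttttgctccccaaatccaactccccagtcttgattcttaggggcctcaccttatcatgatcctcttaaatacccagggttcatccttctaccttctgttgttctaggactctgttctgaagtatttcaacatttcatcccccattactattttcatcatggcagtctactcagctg
Duoxa1: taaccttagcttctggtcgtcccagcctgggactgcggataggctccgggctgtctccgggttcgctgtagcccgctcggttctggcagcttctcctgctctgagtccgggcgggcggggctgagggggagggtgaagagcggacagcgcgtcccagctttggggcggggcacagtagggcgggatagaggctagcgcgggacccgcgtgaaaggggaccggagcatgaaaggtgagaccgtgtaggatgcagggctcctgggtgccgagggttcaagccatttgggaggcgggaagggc
The core AAACA was in none of these 3 windows on either strand, whereas 51.9% of all 33469 promoter windows of the same 300 bases held it. ACAAA, which can overlap AAACA within a longer run, occurred once in *Duox2*, at position -184 from the start site, and once on the opposite strand in *Duox1*, at position -239, against 48.1% of all windows. TTGG was found 3 times in *Duox1* and 2 times in *Duoxa1*, counting both strands, and not in *Duox2*, against 90.6% of all windows. TTGG followed after 5 to 30 bases by AAACA or by ACAAA was in none of the 3 windows, against 7.38% and 6.63% of all windows. These matches describe letters in a short window and not binding. The study searched a wider region around the start site. It reported paired motifs in *Duox2* and FoxE1 binding to these regions by chromatin immunoprecipitation. The motifs it printed are not within the *Duox2* window shown, and sites outside the window are not covered here.

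The probes were well above background in all 20 channels for *Duox1*, *Duox2* and *Duoxa1* and in 19 of 20 for *Duoxa2*, the dimmest. All 7 markers of the thyroid follicular cell were well above background in every channel. Of the markers of other cells, those of C cells reached at most 2 of 20 channels and those of leukocytes at most 1, with *Cd79a* without a probe. *Col1a1* and *Cdh5* were detected in all 20 channels although *Dcn*, *Lum* and *Pecam1* were in none, *Col3a1* was in 1 and *Kdr* in 5. Between 56.8 and 60.3% of spots were well above background in Cy5 and 60.6 to 68.2% in Cy3. *Foxe1* itself was below its reference on all 10 arrays and fell by 0.79 on the log2 scale in siFoxE1 cells against siScramble cells (adjusted p = 0.0226) and by 0.86 against wt cells (adjusted p = 0.0326). Its individual arrays averaged -0.56 ± 0.17 over siScramble and -0.51 ± 0.12 over wt (SD, n = 4 each), against -1.03 and -1.21 on the pools.

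With the main processing, *Duox2* showed the highest ratios of the 4 genes, at about 2-fold in siFoxE1 cells over either reference. *Duoxa2*, its own maturation factor, had the next fitted value, and both were above 0 on 5 of 5 arrays in each comparison. On the individual arrays over wt, however, *Duox1* averaged 0.48 and *Duoxa2* 0.42. With the processed signals of the scanner software, *Duoxa2* stood slightly above *Duox2* in both comparisons, as given below. *Duox1* and *Duoxa1* had lower fitted values and were above 0 on 4 of 5 arrays, with replicate 2 slightly below. None of the 4 genes passed an adjusted p of 0.05 in either of the main fits of 5 arrays, whereas 2 passed over wt when all 10 arrays were fitted together and all 4 when the culture number was a replicate block in that joint fit, as given below. The study's own fit of these arrays listed *Duox2* as upregulated in both comparisons, at a stricter adjusted p. The reason for this difference was not tested. By quantitative PCR of independent silencing experiments, the study found higher *Duox2* mRNA, while its western blots showed no change in Duox2 protein.

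The log2 ratio of *Duox2* over siScramble was 0.29, 0.95, 1.53 and 1.54 in replicates 1 to 4 and 0.88 on the pooled dye swap. Replicates 3 and 4 were high and replicate 1 low, and no array fell below 0. The mean of the individual arrays was 1.08 ± 0.60 (SD, n = 4), and the fit with the dye swap gave 0.98 (SE 0.22, 1.97-fold, limma adjusted p = 0.196). It ranked 5 among 18139 probes by size of the increase. Over wt, *Duox2* gave 0.55, 0.95, 2.86 and 1.17 in replicates 1 to 4 and 0.82 on the pool. Replicate 3 stood far above the others there. The individual arrays averaged 1.38 ± 1.01 (SD, n = 4) and the fit gave 1.10 (SE 0.39, 2.14-fold, limma adjusted p = 0.251). Without the array of replicate 3 the value over wt was 0.85, with an adjusted p of 0.0479 in limma. That fit kept the pool, which also holds RNA of culture 3. On single arrays *Duox2* had the highest or second highest ratio of all probes tested on siScramble arrays 3 and 4 and on wt array 3, and ranked 946 on siScramble array 1 and 366 on wt array 1.

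In unprocessed brightness, the *Duox2* spots of wt array 3 read 1798 and 1850 in siFoxE1 (Cy5) and 265.5 and 267 in wt (Cy3), over a local background of 57 and 61 in Cy5 and of 21 for both spots in Cy3. On wt array 1 they read 344 and 366 in siFoxE1 and 175 and 225 in wt. The replicate spots of the same array differed in their unprocessed log2 ratio by at most 0.27 for *Duox2*, 0.24 for *Duox1* and 0.10 for *Duoxa1*, and by up to 0.47 for the dim *Duoxa2*.

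*Duoxa2* gave log2 ratios of 0.17, 0.22, 0.62 and 0.30 over siScramble in replicates 1 to 4 and 0.71 on the pool. Its fitted value was 0.52 (SE 0.094, 1.43-fold, limma adjusted p = 0.157). Over wt the ratios were 0.11, 0.26, 0.97 and 0.36, with 0.78 on the pool, and the fitted value was 0.60 (SE 0.16, 1.52-fold, limma adjusted p = 0.233). The pooled array, in which the siFoxE1 RNA carried Cy3, stood above every individual array over siScramble and above 3 of 4 over wt. As the fit with a dye term gives the pool as much weight as the individual arrays together, the individual arrays alone gave 0.33 over siScramble and 0.42 over wt. With the processed signals of the scanner software, which subtract the background without an offset, the values were 1.06 and 1.31. Those of *Duox2* were then 1.03 and 1.25, below *Duoxa2* in both comparisons.

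*Duox1* gave ratios of 0.043, -0.069, 0.59 and 0.48 over siScramble, with 0.22 on the pool. Replicates 1 and 2 were near 0 and replicates 3 and 4 higher. The fitted value was 0.24 (SE 0.13, 1.18-fold, limma adjusted p = 0.471). Over wt it gave 0.40, -0.041, 0.93 and 0.62, with 0.54 on the pool, and the fitted value was 0.51 (SE 0.17, 1.42-fold, limma adjusted p = 0.244). *Duoxa1*, the partner of *Duox1*, gave 0.027, -0.12, 0.48 and 0.29 over siScramble, with 0.54 on the pool, and a fitted value of 0.36 (SE 0.11, 1.28-fold, limma adjusted p = 0.270). Over wt it gave 0.0075, -0.027, 0.44 and 0.29, with 0.51 on the pool, and a fitted value of 0.34 (SE 0.11, 1.27-fold, limma adjusted p = 0.240). The pool was the highest array for *Duoxa1* in both comparisons, and the individual arrays alone averaged 0.17 ± 0.27 over siScramble and 0.18 ± 0.22 over wt (SD, n = 4 each).

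**Figure D1:**
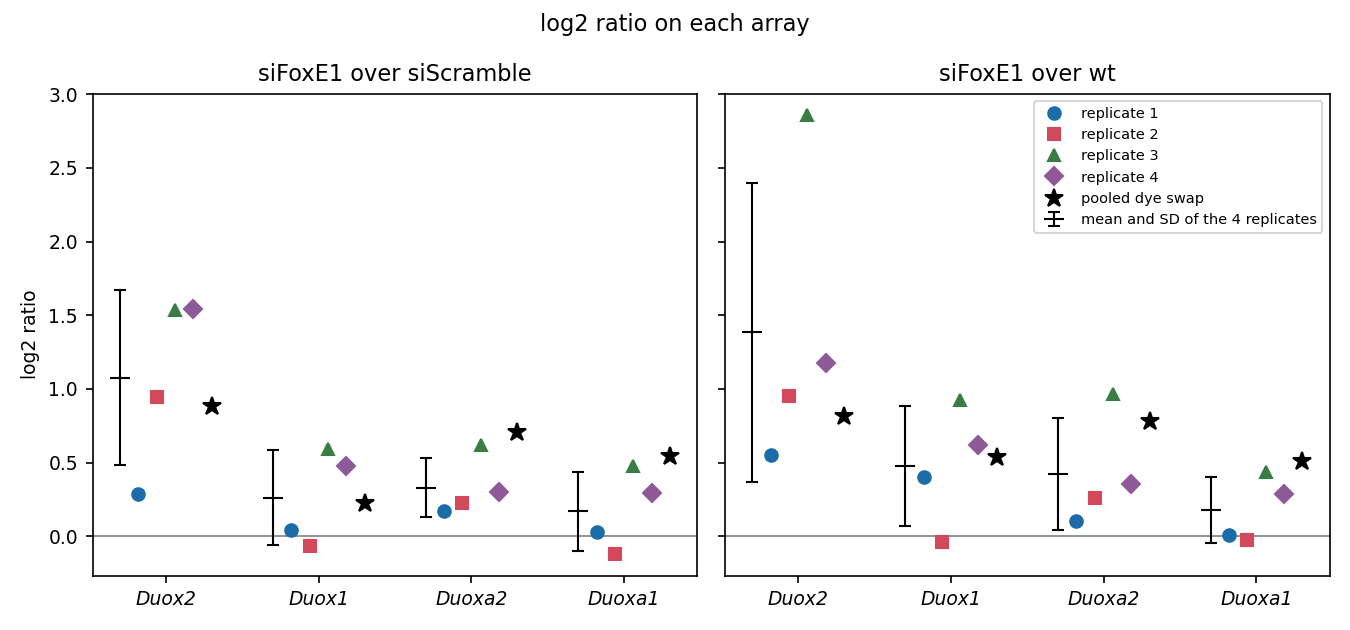
log2 ratio (vertical axis) of each gene on each array, siFoxE1 over siScramble on the left and siFoxE1 over wt on the right, with coloured points for replicates 1 to 4, a star for the pooled dye swap and a bar for the mean and SD of the 4 replicates. *Duox2* lies highest, reaching 2.86 in replicate 3 over wt, and replicate 2 lies just below 0 for *Duox1* and *Duoxa1*.

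By adjusted p, 0 of 4 genes passed in either comparison, where 0.121% of all probes passed over siScramble and 0.0486% over wt (limma). At an unadjusted p under 0.05, 3 of 4 were higher over siScramble, against 6.43% of all probes, and 4 of 4 over wt, against 8.02% of all probes. *Duox1* was the one that did not pass over siScramble. Lower values at that p made up 6.68% of all probes over siScramble and 9.14% over wt. The share of probes above 0 on all 5 arrays, as *Duox2* and *Duoxa2* were in both comparisons, was 7.79% over siScramble and 9.28% over wt. The median fitted value of the 9719 genes tested over siScramble was 0.0011 and that of the 9880 tested over wt was -0.0018. In a single limma fit of all 10 arrays, without a block, the values over wt were 1.16 for *Duox2* (adjusted p = 0.0458), 0.60 for *Duoxa2* (adjusted p = 0.0202), 0.49 for *Duox1* (adjusted p = 0.0538) and 0.35 for *Duoxa1* (adjusted p = 0.0535), so that 2 of 4 passed where 9.34% of all probes did. Arrays with the same culture number deviated together, and with that number as a replicate block in the same fit the values were equal and the adjusted p were 0.0421, 0.0141, 0.0386 and 0.0413 in the same order, so that 4 of 4 passed where 8.26% of all probes did. Without the block, both arrays of a siFoxE1 extract are treated as independent. With it, the pools form a unit of their own, although they hold RNA of the same cultures. These calls thus rest in part on RNA that was used more than once. The joint fit called 1663 probes over wt without the block and 1471 with it, against 9 in the fit of 5 arrays. Over siScramble it called 96 probes (0.539%) without the block and 64 (0.359%) with it, against 22 in the fit of 5 arrays, with none of the 4 genes among them.

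**Figure D2:**
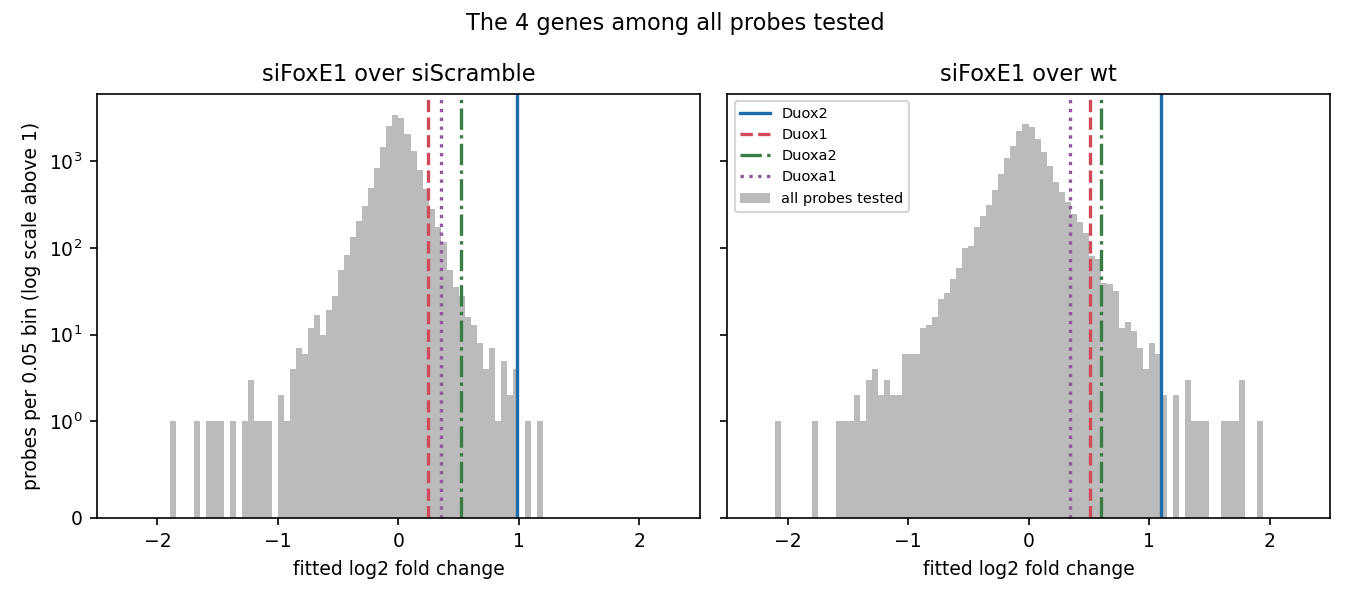
Histogram of the fitted log2 fold change (horizontal axis) of all probes tested, with the number of probes per bin on a vertical axis that is logarithmic above 1, siFoxE1 over siScramble on the left and siFoxE1 over wt on the right. Vertical lines mark the 4 genes, with *Duox2* at 0.98 and 1.10 in the upper tail.

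The oxidases were compared with each other within arrays, which removes what all probes of an array share. *Duox2* minus *Duox1* in log2 ratio was 0.24, 1.02, 0.94 and 1.06 over siScramble, with 0.66 on the pool, a mean of 0.82 ± 0.39 (SD, n = 4). Over wt it was 0.15, 0.99, 1.93 and 0.55, with 0.27 on the pool, a mean of 0.91 ± 0.76 (SD, n = 4). *Duox2* was thus above *Duox1* on all 10 arrays, at an exact two-sided sign-flip permutation p of 0.125 in each comparison, the smallest that 4 arrays allow. *Duoxa2* minus *Duoxa1* was 0.16 ± 0.14 over siScramble and 0.24 ± 0.21 over wt (SD, n = 4 each), also above 0 on all 10 arrays and with the same exact p of 0.125 in each comparison. Between oxidases and maturation factors, *Duox2* minus *Duoxa2* was 0.75 ± 0.47 over siScramble and 0.96 ± 0.64 over wt (SD, n = 4 each) and above 0 on all 10 arrays. On the pools, with the dyes swapped, it was only 0.18 over siScramble and 0.034 over wt. A dye effect of a single probe is not removed by such differences. This order of *Duox2* and *Duoxa2* belongs to the main processing and was reversed in the fits of the processed signals. *Duox1* minus *Duoxa1* was 0.090 ± 0.074 and 0.30 ± 0.22 (SD, n = 4 each), with -0.32 on the siScramble pool and -0.015 in replicate 2 over wt. These 4 pairs in 2 comparisons made 8 exact permutation tests, 7 of them at p = 0.125 (Benjamini-Hochberg adjusted p = 0.143) and *Duox1* minus *Duoxa1* over wt at p = 0.25.

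The level of *Duox2* differed among cultures by more than it differed between conditions. In log2 intensity it was 8.52, 11.93, 11.06 and 10.02 in siFoxE1 cultures 1 to 4, each averaged over the culture's 2 arrays. It was 8.23, 10.99, 9.56 and 8.49 in siScramble cultures and 7.97, 10.96, 8.18 and 8.84 in wt cultures. Culture 2 was high and culture 1 low in all 3 conditions, and the conditions overlapped widely. The lowest and highest culture differed 10.6-fold in siFoxE1, 6.78-fold in siScramble and 7.93-fold in wt. A siFoxE1 extract read on 2 arrays differed by at most 0.050 for *Duox2*, 0.24 for *Duox1*, 0.19 for *Duoxa1* and 0.26 for *Duoxa2*, on the log2 scale. The pooled extracts read 10.64 in siFoxE1 and 9.75 in siScramble on one array, and 10.57 in siFoxE1 and 9.76 in wt on the other. As siFoxE1 carried Cy5 on every individual array, dye and condition cannot be told apart in the levels of single cultures.

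The same culture order held in part for the other genes, over a narrower range. *Duox1* averaged 9.57 ± 0.37 in siFoxE1, 9.33 ± 0.37 in siScramble and 9.08 ± 0.48 in wt (log2 intensity, SD, n = 4 each), with culture 2 highest in siScramble and wt and culture 3 in siFoxE1. *Duoxa2* averaged 6.98 ± 0.48 in siFoxE1, 6.60 ± 0.44 in siScramble and 6.61 ± 0.41 in wt, again with culture 2 highest in all 3 conditions. *Duoxa1* varied least, at 8.71 ± 0.18 in siFoxE1, 8.58 ± 0.18 in siScramble and 8.49 ± 0.21 in wt. In no gene were the conditions separate, and in each the neighbouring conditions differed by less than the spread among cultures. From lowest to highest culture, wt cells spanned 2.13-fold for *Duox1*, 1.82-fold for *Duoxa2* and 1.36-fold for *Duoxa1*. Since RNA was taken from whole cultures, fewer cells with a transcript and less of it per cell cannot be told apart.

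**Figure D3:**
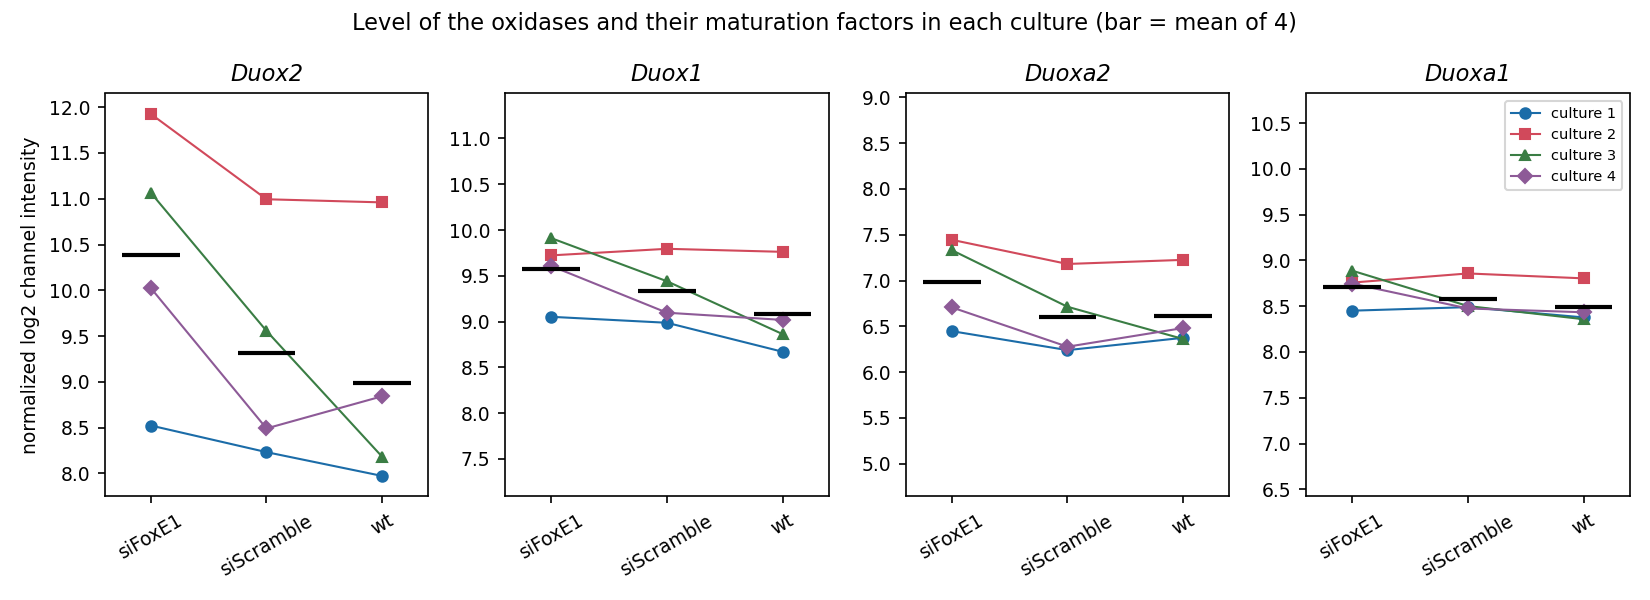
Normalized log2 channel intensity (vertical axis, of the same span in each panel but not the same zero, as probes are not comparable in level) of each gene in siFoxE1, siScramble and wt cultures, with 1 line per culture and a black bar for the mean of 4. *Duox2* runs between 7.97 and 11.93, with culture 2 on top in each condition.

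Over the 12 combinations of condition and culture, the levels of the 4 genes were correlated with Pearson's r between 0.89 (*Duoxa1* with *Duoxa2*) and 0.98 (*Duox2* with *Duoxa2*). These points share cultures, arrays and normalization and are given as a description. Among 9573 genes, the closest to *Duox2* were *Sae1*, a subunit of the SUMO-activating enzyme (r = 0.994), *Smad6*, an inhibitor of BMP signalling (r = 0.993), *Nelfb*, a subunit of the negative elongation factor (r = 0.992), *Mrpl20*, a mitochondrial ribosomal protein (r = 0.990), and *Thtpa*, thiamine triphosphatase (r = 0.988). *Duoxa2* had *Ndufa2*, a subunit of complex I (r = 0.982), *Cpm*, a carboxypeptidase (r = 0.980), and *Duox2* itself (r = 0.978) as its nearest, followed by *Sae1* and *Fgf18*. For *Duox1* these were *Tmem143* (r = 0.993) and *Prdx2*, a peroxiredoxin that removes hydrogen peroxide (r = 0.991), then *Ift27*, *Prm2* and *Nme3*. For *Duoxa1* they were *Tspan15*, a tetraspanin (r = 0.984), *Zfp395*, *Lrrc56*, *Anks1a* and *Oplah*.

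Whether the non-targeting siRNA itself went with a change in these genes was asked through the siFoxE1 RNA that both comparisons share. The indirect difference of siScramble over wt was 0.23 (SE 0.39) for *Duox2*, 0.24 (SE 0.18) for *Duox1*, 0.088 (SE 0.15) for *Duoxa2* and -0.0012 (SE 0.13) for *Duoxa1*, with limma adjusted p of 0.988 or more. Of 17804 probes 0 passed in this limma fit and 605 (3.4%) had an unadjusted p under 0.05, none of them a probe of the 4 genes. That fit treats the arrays as independent, although they share siFoxE1 RNA. With the culture number as a replicate block, *Duox1* kept its value at an unadjusted limma p of 0.0401 (adjusted p = 0.391). There, 2190 of the 17804 probes had an unadjusted p under 0.05. In single cultures, *Duox2* in siScramble was above wt by 0.26, 0.034 and 1.37 in cultures 1 to 3 and stood at -0.35 in culture 4. Culture 3 was thus the one in which the references differed most. With its individual arrays left out, the indirect value for *Duox2* was -0.041. The pools, which also hold RNA of culture 3, were kept in that fit.

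*Hspa5* (BiP), the main chaperone of the ER lumen, had log2 ratios of -0.42, -0.16, -3.24 and -1.36 over siScramble in replicates 1 to 4 and 0.075, -0.081, -3.94 and -1.21 over wt. Replicates 3 and 4, in which *Duox2* was highest over either reference, were those in which *Hspa5* was lowest, while between replicates 1 and 2 the *Duox2* ratio was higher in replicate 2 over either reference without a lower *Hspa5* over siScramble. The spread of the log2 ratio over all probes was also widest on array 3 in each comparison, with an SD of 0.31 over siScramble and 0.45 over wt, against 0.17 to 0.30 on the other arrays of both comparisons. The ratio of *Foxe1* was -0.77, -0.46, -0.62 and -0.39 over siScramble and -0.52, -0.55, -0.35 and -0.62 over wt, so that *Duox2* was not highest where *Foxe1* was lowest. The part of these values in the *Duox2* ratio was not tested.

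Transcripts of the proteins that help the oxidases fold and leave the ER had fitted values below 0 in both comparisons, opposite in sign to *Duoxa1* and *Duoxa2*. All 7 of this list, chaperones (*Hspa5*, *Calr*, *Canx*), disulphide isomerases and relatives (*Pdia3*, *Pdia4*, *Txndc11*) and the folding sensor *Uggt1*, had negative fitted values, with medians of -0.50 over siScramble and -0.65 over wt. Of all genes, 50.4% were above 0 over siScramble and 49.4% over wt. The 7 genes were read on the same arrays and are not separate observations. None of the 7 passed the adjusted p (limma). At an unadjusted p under 0.05, 0 were lower over siScramble and 1 over wt, against 6.68% and 9.14% of all probes. *Hspa5* had a fitted value of -1.06 (SE 0.49) over siScramble and -0.96 (SE 0.70) over wt, and *Calr*, calreticulin, -0.68 (SE 0.31) and -0.93 (SE 0.49). *Txndc11*, a thioredoxin-domain protein that was found by its binding to human DUOX, had -0.42 (SE 0.19) and -0.65 (SE 0.29). In each comparison the median ratio of the list was lowest on array 3, at -1.44 over siScramble and -2.13 over wt. Array 4 followed, at -1.06 and -0.97. Arrays 1 and 2 gave -0.12 and -0.12 over siScramble and -0.33 and -0.037 over wt. *Calr*, *Canx* and *Pdia3* were above 0 on some array of each comparison, as were *Pdia4* over siScramble and *Hspa5* over wt.

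The rest of hormone synthesis did not share one sign. Of 14 listed genes 11 were tested, 7 of them above 0 over siScramble and 8 over wt, with medians of 0.055 and 0.095. None passed the adjusted p (limma), while 3 were higher and 3 lower at an unadjusted p under 0.05 in each comparison. Of all probes, 6.43% were higher and 6.68% lower at that p over siScramble, and 8.02% and 9.14% over wt. *Slc5a5*, the basolateral iodide symporter NIS, had a fitted value of -0.31 (SE 0.11) over siScramble and -0.65 (SE 0.095) over wt. On the apical side, *Slc26a4* (pendrin) had 0.32 (SE 0.063) and 0.36 (SE 0.076), above 0 on all 10 arrays, and *Ano1*, a chloride channel that also carries iodide, had 0.37 (SE 0.095) and 0.52 (SE 0.15). *Dio1*, the deiodinase that makes T3 from T4, had 0.36 (SE 0.11) and 0.53 (SE 0.16).

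Of 13 genes for other NADPH oxidases and their subunits 6 were tested, and *Nox1*, *Cybb*, *Nox3* and *Nox4* were not, as their probes were too dim. None passed the adjusted p (limma), and medians were 0.14 over siScramble and 0.085 over wt. At an unadjusted p under 0.05, 2 were higher in each comparison, against 6.43% of all probes over siScramble and 8.02% over wt. *Ncf4*, the cytosolic subunit p40phox, had 0.51 (SE 0.096) over siScramble and 0.55 (SE 0.13) over wt. *Duox2* and *Duox1* were therefore the catalytic subunits of the family with tested probes.

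Genes that remove peroxide or superoxide numbered 18 tested of 20, with none past the adjusted p (limma) and medians of 0.047 over siScramble and 0.061 over wt. At an unadjusted p under 0.05, 4 were higher and 2 lower over siScramble and 5 were higher and 2 lower over wt. Of all probes, 6.43% were higher and 6.68% lower at that p over siScramble, and 8.02% and 9.14% over wt. *Glrx*, glutaredoxin, had 0.45 (SE 0.11) and 0.69 (SE 0.14), and *Prdx2*, one of the genes closest to *Duox1* in level, had 0.30 (SE 0.10) and 0.47 (SE 0.17). *Sod3*, the extracellular superoxide dismutase, had -0.32 (SE 0.075) and -0.32 (SE 0.090). For the enzymes that supply NADPH, 9 of 10 were tested, none passed the adjusted p (limma), and 2 were higher over siScramble and 1 was higher and 1 lower over wt at an unadjusted p under 0.05. Their medians were 0.056 and 0.13, and *Idh1*, the cytosolic isocitrate dehydrogenase, had 0.25 (SE 0.066) and 0.18 (SE 0.073). In the other direction, *Nadk* had -0.21 (SE 0.11) over siScramble and -0.49 (SE 0.15) over wt, the largest in size of this list over wt.

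Among genes through which TSH, cAMP and calcium reach the oxidases, 18 of 21 were tested over siScramble and 17 over wt, with none past the adjusted p (limma), 1 and 2 higher at an unadjusted p under 0.05, and medians of 0.027 and 0.050. Of all probes, 6.43% were higher and 6.68% lower at that p over siScramble, and 8.02% and 9.14% over wt. *Itpr1*, an IP3 receptor that releases ER calcium, had 0.25 (SE 0.11) and 0.33 (SE 0.10), and *Prkar2b*, a regulatory subunit of protein kinase A, had 0.24 (SE 0.074) and 0.38 (SE 0.15). On the lower side, *Plcb1* had -0.22 (SE 0.11) and -0.27 (SE 0.15). Of 9 cytokine receptors and transcription factors that are known to induce *Duox* genes in airway epithelium, all were tested, none passed the adjusted p (limma), and medians were 0.018 and -0.019. At an unadjusted p under 0.05, 1 was higher and 1 lower over siScramble, and 2 and 2 over wt. *Irf1*, an interferon-induced transcription factor, had 0.30 (SE 0.12) and 0.41 (SE 0.10), and *Ifngr2*, a chain of the interferon gamma receptor, had -0.27 (SE 0.064) and -0.31 (SE 0.077).

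**Figure D4:**
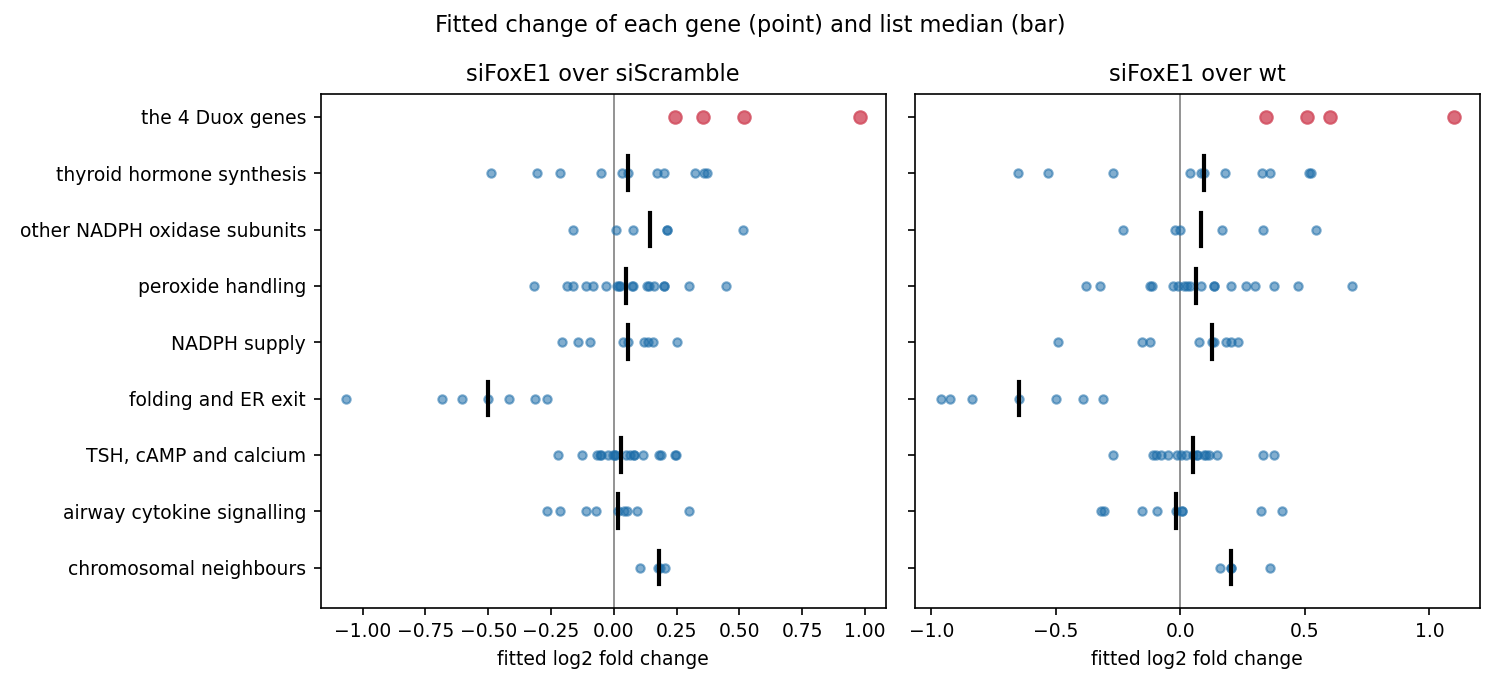
Fitted log2 fold change (horizontal axis) of the 4 Duox genes (red) and of each tested gene of the other lists (blue), with a black bar for the median of each other list, siFoxE1 over siScramble on the left and over wt on the right. The folding list lies wholly below 0, with medians of -0.50 and -0.65, and the remaining medians lie between -0.019 and 0.20.

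The tested chromosomal neighbours had fitted values above 0 in both comparisons, as did 50.4% of all genes over siScramble and 49.4% over wt. Over siScramble each of them fell below 0 on some array, the lowest being *Sord* at -0.13. Of the 5 annotated protein-coding genes on each side of the cluster, 4 of 10 were tested, and none passed the adjusted p (limma). At an unadjusted p under 0.05, 2 were higher in each comparison, against 6.43% of all probes over siScramble and 8.02% over wt. *Trim69* had 0.20 (SE 0.081) over siScramble and 0.20 (SE 0.12) over wt, *B2m*, the light chain of MHC class I, 0.19 (SE 0.092) and 0.36 (SE 0.13), *Gatm*, an enzyme of creatine synthesis, 0.18 (SE 0.067) and 0.16 (SE 0.070), and *Sord*, sorbitol dehydrogenase, which lies beside *Duox2*, 0.10 (SE 0.071) and 0.20 (SE 0.077). Their medians of 0.18 and 0.20 were below the fitted values of all 4 Duox genes in both comparisons, a difference that was not tested.

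All wt arrays lay on slide 1, while siScramble replicate 3 and the siScramble pool lay on slide 2. On the slide 1 arrays alone, replicates 1, 2 and 4, the values over siScramble were 0.92 for *Duox2* (adjusted p = 0.101), 0.23 for *Duoxa2*, 0.15 for *Duox1* and 0.068 for *Duoxa1*, the last 3 with limma adjusted p of 0.196, 0.526 and 0.762. This fit also lacks the pooled dye swap and replicate 3, so that slide, pool and replicate cannot be told apart in it. The 4 individual arrays on both slides gave means of 1.08 for *Duox2*, 0.33 for *Duoxa2*, 0.26 for *Duox1* and 0.17 for *Duoxa1*. Slide 2 had a single individual array and gave no value of its own.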

How the data were processed

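Arrays were scanned by the authors and quantified with Feature Extraction 10.7.3.1, whose deposited files hold spot intensity per dye, log10 ratios of red over green and quality marks. The deposited table of normalized log2 ratios was made by the authors with loess and quantile normalization (submitters' notes name limma 3.2.3) and served as an alternative. Here, median spot and background signals were corrected by normexp (offset 50), normalized by loess and quantiles, averaged per probe and fitted in limma 3.58.1 (R 4.3.3) with a dye term, on the 5 arrays of each comparison. Direction was taken from the dyes in the labels, whose assignment is opposite to the colour key of the study's design drawing, and *Foxe1* was lower in siFoxE1 on all 10 arrays. Control and outlier spots (1.25 to 1.60% per array) were left out, and no spot was saturated. Probes were tested if well above background on 3 of 5 arrays in 1 channel, with Benjamini-Hochberg adjustment over all of them. The number of arrays limits the precision.

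Same-numbered arrays correlated in their deviations (r = 0.62, 0.76, 0.76 and 0.41), and the numbers were taken to pair the samples. For replicate 4, the correlation with another number reached 0.51. Arrays of the same number also share their siFoxE1 extract, so this correlation alone cannot show that the references are paired. The named genes were the members, *Foxe1*, 5 genes on each side of the cluster, the 5 genes closest in level to each member, and, from each list, genes among the 4 with the largest fitted values in either comparison (1 is not reported here). Genes and lists were chosen with earlier results of these data known. Probes were named through RefSeq transcript accessions, and sequences come from RefSeq (GRCr8). The fits were tested on simulated data. Figures were drawn with Python 3.11.15 and matplotlib 3.10.9.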

Additional observations from a re-analysis of the deposited data

Results flagged for a closer look

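Of 20 groups of 4 values checked, 3 held a value far from the other 3, where chance gives about 1 in 20 independent groups. These groups share cultures and are not independent. Over the 4 wt cultures, *Duoxa1* and *Duoxa2* had Pearson's r of 0.9995. The 3 flags are thus not separate events, and all came from culture 2. *Duoxa1* had a log2 intensity of 8.86 in siScramble culture 2, against 8.47 to 8.50 in the other siScramble cultures, and of 8.80 in wt culture 2, against 8.36 to 8.43 in the other wt cultures. *Duoxa2* had 7.23 in wt culture 2, against 6.36 to 6.48 in the other wt cultures.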

How the results depend on the processing

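*Duox1*, *Duox2*, *Duoxa1* and *Duoxa2* kept a positive sign over siScramble under 16 other settings and over wt under 15. Over siScramble, 22 probes passed, against 0 with the processed signals, 14 with an offset of 10, 691 without the dye term, 524 with the individual arrays only, 37 on slide 1, 96 with all 10 arrays in one fit, 64 with the replicate block and 89 with the slide as a block. Leaving out a replicate, with the pool of all cultures kept, gave 12 (without replicate 1) to 35 (without replicate 2). *Duox2* passed there without the dye term (1.04, adjusted p = 0.0154) and with the individual arrays only (1.08, adjusted p = 0.0366), and *Duoxa2* without the dye term (0.41, adjusted p = 0.0409). Their limma adjusted p ran from 0.0154 to 0.356 and from 0.0409 to 0.260. Over wt, 9 probes passed, against 0 with the processed signals, 849 without the dye term, 225 with the individual arrays only, 1663 with all 10 arrays in one fit, 1471 with the replicate block and 1576 with the slide as a block. Leaving out a replicate, again with the pool kept, gave 1 without replicate 1, 36 without replicate 2, 65 without replicate 3 and 0 without replicate 4. *Duox2* passed over wt without the dye term (1.27, adjusted p = 0.0499), with all 10 arrays (1.16, adjusted p = 0.0458), with the replicate block (1.16) and with the slide block (1.15, adjusted p = 0.0461), and ran from 0.85 to 1.24 when a replicate was left out. *Duoxa2* passed with all 10 arrays (0.60, adjusted p = 0.0202), the replicate block (0.60) and the slide block (0.60, adjusted p = 0.0211), and *Duox1* (0.49) and *Duoxa1* (0.35) with the replicate block only. The adjusted p of each gene over wt reached 0.516, without replicate 4. The cause of these shifts was not tested.

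For siScramble over wt, the replicate block called 11 probes, against 0. *Duoxa1* changed sign with the processed signals (0.046) and with loess alone (0.0090). When a replicate was left out and the pools kept, it ran from -0.025 to 0.0090, and *Duox2* from -0.041 to 0.38. Relative to the same fit without it, the replicate block changed the calls of *Duox1* and *Duoxa1* over wt and no other call of the 4 genes. *Duox2* minus *Duox1* ran from 0.73 to 1.01 over siScramble and from 0.56 to 1.16 over wt, and *Duoxa2* minus *Duoxa1* from 0.098 to 0.21 and from 0.15 to 0.30. The mean of the spot pixels was not run, as that column was not used here, and a mean over the probes of a gene does not apply to genes with 1 probe. The dim *Duoxa2* depends most on the background correction.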
